A study of Mus musculus with 18 samples.

Results

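The genes described here are 10 transcripts that mark classical monocytes, *Ly6c2*, *Ifitm6*, *Chil3*, *Hp*, *Lyz2*, *S100a4*, *S100a6*, *Vcan*, *Fn1* and *F13a1*. They were chosen by symbol from a list of monocyte genes and were looked up, by their Ensembl identifiers, in the gene counts of macrophages sorted from MC38 liver metastasis. All 10 were found among the 13759 genes of that table, and all 10 passed the filter on low counts. MC38 is a mouse colon adenocarcinoma cell line, which was injected into the spleen of young adult female C57BL6/J mice so that metastases formed in the liver. From the metastases of these otherwise untreated mice, lineage-negative CD45+CD11b+ cells were sorted by their level of F4/80, a surface protein of macrophages, into an F4/80high and an F4/80low subset, with 3 libraries of each. The study's text calls both metastasis-associated macrophages (MAMs) and names the F4/80low subset F4/80int. No macrophages from healthy or metastasis-free liver and no blood monocytes were among these 6 libraries. In the study's flow cytometry of MAMs, cells were gated as low or negative for the Ly6C protein and negative for Gr1, a marker of neutrophils. For its macrophage sort the study lists CD45, CD11b and F4/80, and names neither Ly6C nor Gr1. Whether the sort for sequencing also used that gate is not stated, which bears on *Ly6c2* and on the neutrophil genes given below. The labels do not state whether the 3 libraries of a subset came from separate mice or pools, so the p-values below measure the spread between these libraries, which may be technical.

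Classical monocytes leave the bone marrow, circulate with high levels of Ly6C and the chemokine receptor CCR2, and enter inflamed tissue and tumors, where they can become macrophages. Their transcripts encode surface proteins (Ly6C, the interferon-induced transmembrane family), granule and secreted proteins (lysozyme, haptoglobin, the chitinase-like protein Ym1), calcium-binding S100 proteins, and proteins of matrix and coagulation (versican, fibronectin, factor XIII). As monocytes mature into tissue macrophages, F4/80 and the complement C1q genes typically go up while Ly6C goes down. Several of the 10 genes are also used by other cells: neutrophils hold *Chil3*, *Hp*, *Lyz2* and *Ifitm6* transcripts, fibroblasts hold *Vcan*, *Fn1*, *S100a4* and *S100a6* transcripts, and hepatocytes secrete haptoglobin and fibronectin.

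Total counts per library lay between 21278959 and 32267015. *Adgre1*, which encodes F4/80, matched the sort, with 901, 806 and 1167 CPM (counts scaled to library size, after TMM scaling) in F4/80high MAMs and 124, 160 and 153 CPM in F4/80low MAMs (log2 fold change 2.71 ± 0.17 SE, edgeR quasi-likelihood test with Benjamini-Hochberg adjustment, adjusted p = 8.63e-06). *Itgam*, which encodes CD11b, was not called (log2 fold change 0.11 ± 0.18, edgeR adjusted p = 0.632), and *Ptprc*, which encodes CD45, was lower in F4/80high MAMs (log2 fold change -0.89 ± 0.11, edgeR adjusted p = 0.000389). Throughout, a log2 fold change is the F4/80high level minus the F4/80low level, the SE is approximate, and a gene was called at an adjusted p under 0.1 over all 13759 genes.

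Of the 10 genes, 8 were lower in F4/80high MAMs, 1 (*F13a1*) was higher, and 1 (*Lyz2*) was not called. Over all genes tested, 27.1% were called lower and 27.8% called higher in F4/80high MAMs. With a difference of more than 2-fold also required, 7 of the 10 genes were lower, against 11% of all genes, and 1 was higher, against 11.1% of all genes. The median log2 fold change was -1.92 over the 10 genes and 0.01 over all genes. Of all called genes, 49.4% were lower in F4/80high MAMs; scaled by library totals without TMM, 35.1% were, and the median of all genes moved to 0.16. The subsets did not overlap for 9 of the 10 genes, all but *Lyz2*. The share of all genes without overlap was not counted, so this number has no background to be read against. *Ly6c2* is one of the genes that the study itself named from these libraries, and the list was drawn up with results of these data known, so the counts are not independent evidence of its direction.

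**Figure D1:**
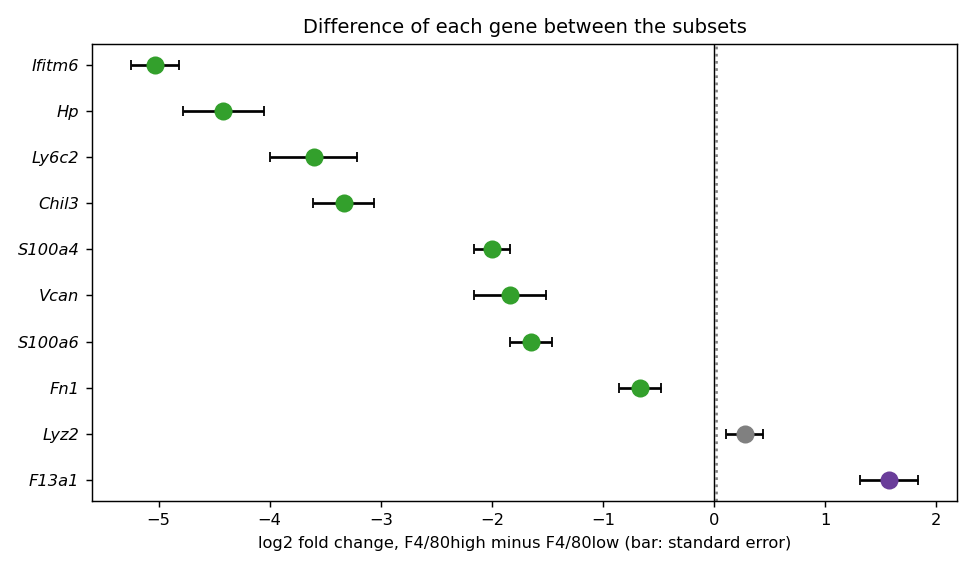
The log2 fold change of each of the 10 genes between F4/80high and F4/80low MAMs, with its standard error; green points were called lower in F4/80high MAMs, the purple point higher, the grey point was not called, and the dotted line is the median of all genes (0.01). The values run from -5.03 for *Ifitm6* to 1.57 for *F13a1*.

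Sequence upstream of a RefSeq start site is shown for 3 genes, *Ly6c2* and *Chil3*, which held the motif matches described here and were lower in F4/80high MAMs, and *F13a1*, which was higher. The RefSeq promoter table, made on GRCm38.p6, held 8 of the 10 genes, *Hp* and *Fn1* being the exceptions, and its 250 bases upstream of each start were located in GRCm39, whose coordinates are given. Only the stretch upstream of the exons annotated in GENCODE vM39 within each window is printed, 5′ to 3′ on the minus strand. For *Ly6c2* the start, at 74983786, lies inside the annotated span of the gene, and 127 bases between it and the printed stretch are left out. *Ly6c2* and *F13a1* each had a further RefSeq start, whose window is not printed. Capitals mark a PU.1-type motif (GAGGAAGT) in *Ly6c2* and an IRF-type motif (GAAANNGAA, here read from the other strand) in *Chil3*; *F13a1* held none and is in lower case.
Ly6c2, chr15:74983914-74984036: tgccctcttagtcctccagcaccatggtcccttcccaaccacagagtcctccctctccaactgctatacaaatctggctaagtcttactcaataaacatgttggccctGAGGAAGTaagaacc
Chil3, chr3:106074881-106075130: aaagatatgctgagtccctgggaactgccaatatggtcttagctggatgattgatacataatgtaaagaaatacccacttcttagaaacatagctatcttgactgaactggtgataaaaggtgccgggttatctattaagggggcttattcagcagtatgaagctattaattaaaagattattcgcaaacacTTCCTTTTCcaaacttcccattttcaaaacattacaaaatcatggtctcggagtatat
F13a1, chr13:37234278-37234470: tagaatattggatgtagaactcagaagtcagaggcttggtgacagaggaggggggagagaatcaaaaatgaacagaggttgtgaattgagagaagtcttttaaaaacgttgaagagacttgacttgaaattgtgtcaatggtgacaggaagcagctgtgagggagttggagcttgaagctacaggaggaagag
Over the 250-base windows and both strands, the PU.1-type motif was found in 1 of the 8 genes and in 2.44% of 32851 promoters. The IRF-type motif was found in 1 of the 8 genes and in 7.13% of promoters, and a C/EBP-type motif (TTGCNNAA) in 0 of the 8 genes and in 9.56% of promoters. The *Ly6c2* window holds the PU.1-type motif at a further position, within an annotated exon that is not printed. A match is a run of letters and was not tested as a binding site.

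Both genes of surface proteins were lower in F4/80high MAMs by more than 10-fold. *Ly6c2* (ENSMUSG00000022584.15, chr15:74980003-74988467, minus strand, GRCm39) encodes Ly6C2, the antigen by which mouse classical monocytes are sorted. It measured 10.2, 12.6 and 3.53 CPM in F4/80high MAMs and 119, 115 and 84.1 CPM in F4/80low MAMs. All 3 F4/80low libraries were above all 3 F4/80high libraries, and the lowest library of each subset was replicate 3. *Ly6c2* was 12.2-fold lower in F4/80high MAMs (log2 fold change -3.61 ± 0.39, edgeR adjusted p = 0.000165). Reads of *Ly6c2* may be shared with its near-identical neighbour *Ly6c1*, which was not found among the genes of the deposited counts, so the split between them is uncertain.

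*Ifitm6* (ENSMUSG00000059108.5, chr7:140595612-140597837, minus strand) belongs to the interferon-induced transmembrane family, of which other members restrict virus entry. Its level was 1.67, 1.17 and 1.01 CPM in F4/80high MAMs, or 31 to 37 counts per library, and 43.6, 32.8 and 47.1 CPM in F4/80low MAMs. This was the largest difference of the 10 genes, 32.6-fold (log2 fold change -5.03 ± 0.22, edgeR adjusted p = 2.05e-06), and 0.836% of all genes had a lower log2 fold change. The family members listed with it, *Ifitm1*, *Ifitm2* and *Ifitm3*, lie on the same stretch of chromosome 7 and were also lower in F4/80high MAMs, with log2 fold changes of unequal size. *Ifitm1* was at 4.46, 3.97 and 3.21 CPM against 164, 114 and 173 CPM (log2 fold change -5.28 ± 0.21, edgeR adjusted p = 1.60e-06). *Ifitm3* had a log2 fold change of -1.22 ± 0.10 (edgeR adjusted p = 3.30e-05). *Ifitm2* had the smallest difference of these, -0.56 ± 0.12 (edgeR adjusted p = 0.0065).

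Among the genes of granule and secreted proteins, *Chil3* and *Hp* were lower in F4/80high MAMs and *Lyz2* was not called. *Chil3* (ENSMUSG00000040809.11, chr3:106054870-106074880, minus strand) encodes Ym1, a secreted chitinase-like protein. It measured 17.2, 23.9 and 13.7 CPM in F4/80high MAMs and 162, 139 and 253 CPM in F4/80low MAMs. The lowest F4/80low library was well above the highest F4/80high library, and *Chil3* was 10.1-fold lower in F4/80high MAMs (log2 fold change -3.33 ± 0.28, edgeR adjusted p = 4.17e-05). Its close copies *Chil4* and *Chil1* were not found among the genes of the deposited counts. *Hp* (ENSMUSG00000031722.11, chr8:110301759-110305804, minus strand) encodes haptoglobin, which binds free hemoglobin. It measured 2.66, 3.68 and 1.04 CPM in F4/80high MAMs, 32 to 104 counts per library, and 47.7, 43.9 and 64.8 CPM in F4/80low MAMs, a 21.4-fold difference (log2 fold change -4.42 ± 0.36, edgeR adjusted p = 3.98e-05). Within F4/80high MAMs, *Hp* was highest in replicate 2 and lowest in replicate 3, as was albumin (*Alb*, 5.00, 6.84 and 1.23 CPM in replicates 1 to 3), the main secreted protein of hepatocytes. That order was not particular to *Hp*, because *Ly6c2*, *Chil3*, *S100a4* and *S100a6* had it too. Between the subsets *Alb* was not called (log2 fold change 0.94 ± 0.59, edgeR adjusted p = 0.223), with 1.74, 3.59 and 1.43 CPM in F4/80low MAMs. In that subset the order was not shared: *Alb* was highest in replicate 2 and lowest in replicate 3, and *Hp* the reverse.

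*Lyz2* (ENSMUSG00000069516.9, chr10:117111557-117118346, minus strand), the lysozyme gene used to mark the whole myeloid lineage, was at 6282, 5359 and 7623 CPM in F4/80high MAMs and 4609, 5055 and 6258 CPM in F4/80low MAMs. The subsets overlapped, and the log2 fold change of 0.27 ± 0.16 was not called (edgeR adjusted p = 0.205). This call depended on single libraries and on scaling: *Lyz2* was called higher in F4/80high MAMs without F4/80high replicate 2 (0.39, edgeR adjusted p = 0.0884), without F4/80low replicate 3 (0.41, adjusted p = 0.0853) and with library totals in place of TMM (0.42, adjusted p = 0.0407). Its copy *Lyz1*, the lysozyme gene best known from Paneth cells, was scarce, at 4.19, 2.66 and 7.30 CPM against 2.82, 2.46 and 2.47 CPM (log2 fold change 0.87 ± 0.35, edgeR adjusted p = 0.0731), and the reads of such copies may not be split cleanly. *Lyz1* was not called without F4/80high replicate 3 or without any of the F4/80low replicates.

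**Figure D2:**
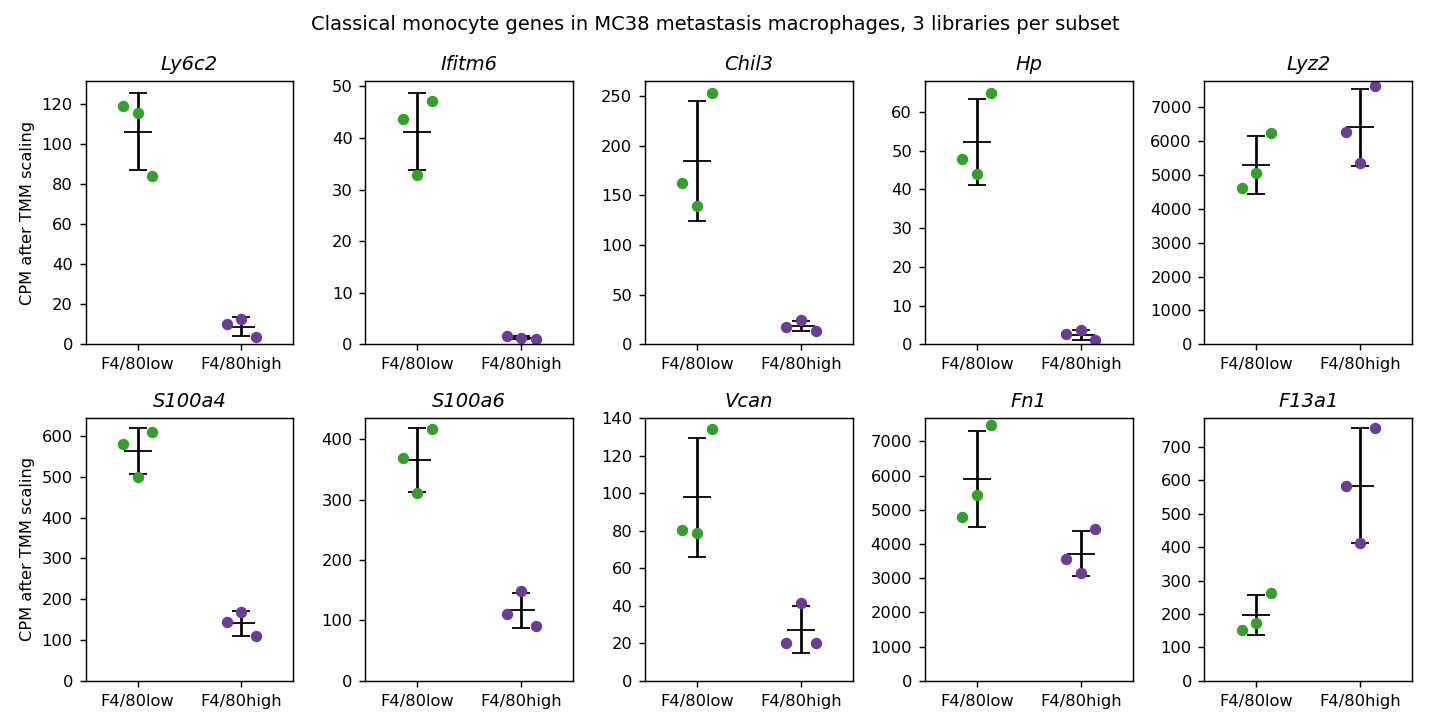
Level of each of the 10 genes, in CPM after TMM scaling, in the 3 F4/80low (green) and 3 F4/80high (purple) libraries, placed from left to right as replicates 1 to 3; bars show the mean and SD, and each panel has its own axis from 0. The subsets overlap for *Lyz2* and for none of the other genes, and *F13a1* has its higher values in F4/80high MAMs.

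Both S100 genes of the list were lower in F4/80high MAMs. *S100a4* (ENSMUSG00000001020.9, chr3:90511074-90513354, plus strand) encodes a calcium-binding protein tied to cell motility. It measured 143, 170 and 109 CPM in F4/80high MAMs and 579, 499 and 608 CPM in F4/80low MAMs, a 4.00-fold difference (log2 fold change -2.00 ± 0.17, edgeR adjusted p = 4.01e-05). *S100a6* (ENSMUSG00000001025.9, chr3:90520140-90535843, plus strand), a related gene 6785 bases downstream, measured 110, 149 and 90.9 CPM against 369, 311 and 417 CPM. Its difference was 3.14-fold (log2 fold change -1.65 ± 0.19, edgeR adjusted p = 0.000202), and its libraries stood in the same order as those of *S100a4* within each subset. The other S100 genes listed as monocyte genes were lower in F4/80high MAMs too, *S100a10*, the annexin A2 partner, by 1.35 ± 0.17 on the log2 scale (edgeR adjusted p = 0.000358) and *S100a11* by 2.48 ± 0.17 (edgeR adjusted p = 1.43e-05). *S100a8* and *S100a9*, which encode the subunits of calprotectin and are most abundant in neutrophils, were near the limit of counting in F4/80high MAMs, with 0, 1 and 1 counts and 5, 0 and 0 counts. In F4/80low MAMs *S100a8* was at 21.0, 1.30 and 2.47 CPM and *S100a9* at 32.8, 1.91 and 5.41 CPM, so that replicate 1 held most of both. Both were called lower (edgeR adjusted p = 0.0031 and 0.00336).

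The genes of matrix and coagulation proteins did not move as a group. *Vcan* (ENSMUSG00000021614.17, chr13:89803431-89890814, minus strand) encodes versican, a large proteoglycan. It measured 20.1, 41.7 and 20.2 CPM in F4/80high MAMs and 80.3, 78.9 and 134 CPM in F4/80low MAMs, a 3.57-fold difference (log2 fold change -1.84 ± 0.32, edgeR adjusted p = 0.00203). *Fn1* (ENSMUSG00000026193.16, chr1:71624673-71692419, minus strand), which encodes fibronectin, measured 3552, 3162 and 4443 CPM against 4801, 5429 and 7470 CPM. The highest F4/80high library lay just below the lowest F4/80low library, and the difference was the smallest among the called genes of the list, 1.59-fold (log2 fold change -0.67 ± 0.19, edgeR adjusted p = 0.0202).

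*F13a1* (ENSMUSG00000039109.18, chr13:37051152-37234277, minus strand) encodes the A subunit of coagulation factor XIII, a transglutaminase that crosslinks fibrin. It measured 584, 411 and 755 CPM in F4/80high MAMs and 151, 173 and 264 CPM in F4/80low MAMs. Every F4/80high library was above every F4/80low library, and *F13a1* was 2.98-fold higher in F4/80high MAMs (log2 fold change 1.57 ± 0.26, edgeR adjusted p = 0.00153), with a higher log2 fold change than 93.8% of all genes. Its direction was thus opposite to that of the other 8 called genes of the list, and it remained so under every alternative tried.

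Per kilobase of transcript, the only scale on which different genes can be set side by side, *Lyz2* was the highest of the 10 in both subsets, with 2144 ± 380.1 CPM per kilobase (SD, n = 3) in F4/80high and 1772 ± 284.8 in F4/80low MAMs. In F4/80high MAMs it was followed by *Fn1* (442 ± 78.0 CPM per kilobase), *S100a4* (280 ± 60.6), and *S100a6* and *F13a1*, which did not differ beyond their spread (149.5 ± 37.9 and 147.5 ± 43.6). *Chil3* and *Ly6c2* overlapped at 11.9 ± 3.38 and 10.5 ± 5.63 CPM per kilobase, and *Vcan*, *Ifitm6* and *Hp* overlapped at 2.17 ± 0.98, 1.91 ± 0.51 and 1.83 ± 0.99. In F4/80low MAMs *S100a4* (1118 ± 112.6 CPM per kilobase) stood above *Fn1* (702 ± 166) and *S100a6* (469 ± 68.1), with no overlap between these neighbours. *Ly6c2* and *Chil3* came next and overlapped, at 127 ± 23.0 and 120.04 ± 39.2 CPM per kilobase. *Ifitm6* (61.5 ± 11.2 CPM per kilobase) overlapped with *F13a1* (49.6 ± 15.1), which overlapped with *Hp* (38.8 ± 8.27), and *Vcan* was the lowest at 7.76 ± 2.51, with no overlap with *Hp*. Only 3.96% of all genes were above *Ly6c2* per kilobase in F4/80low MAMs, and 38.4% were in F4/80high MAMs.

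The 10 genes together took 1.01% to 1.35% of all counts in F4/80high MAMs and 1.03% to 1.45% in F4/80low MAMs, and these ranges overlapped. Most of this came from *Lyz2* and *Fn1*. *Lyz2* alone took 0.579% to 0.787% of the counts in F4/80high MAMs and 0.435% to 0.582% in F4/80low MAMs.

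**Figure D3:**
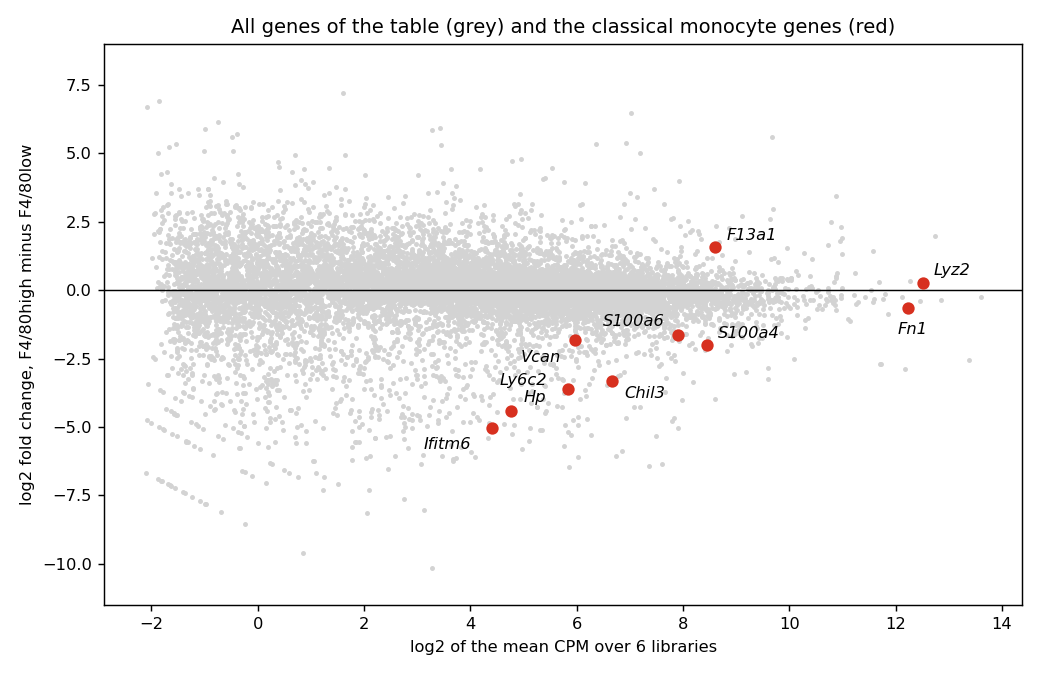
All 13759 genes by the log2 of their mean CPM over the 6 libraries and by their log2 fold change, F4/80high minus F4/80low, with the 10 genes in red. *Lyz2*, *Fn1* and *F13a1* lie at the right, with the highest mean CPM of the 10, and *Ifitm6* and *Hp* lie lowest, at log2 fold changes of -5.03 and -4.42.

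The 3 libraries of a subset differed in a way that ran through most of the list. In F4/80high MAMs, replicate 3 was the lowest library for *Ly6c2*, *Ifitm6*, *Chil3*, *Hp*, *S100a4* and *S100a6* and the highest for *Lyz2*, *Fn1* and *F13a1*. Replicate 2 was the highest for *Ly6c2*, *Chil3*, *Hp*, *S100a4*, *S100a6* and *Vcan*. In F4/80low MAMs, replicate 3 was the highest library for 9 of the 10 genes, *Ly6c2* being the exception, in which it was the lowest. The deviations from the subset mean in F4/80high replicate 3 were -1.12 for *Ly6c2* and -1.06 for *Hp* on the log2 scale, and the next largest in size was 0.77, for *Hp* in F4/80high replicate 2. *Adgre1*, the sorting marker, was also highest in F4/80high replicate 3 (1167 CPM) and lowest in replicate 2 (806 CPM). Its part in the order of the libraries was not tested.

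**Figure D4:**
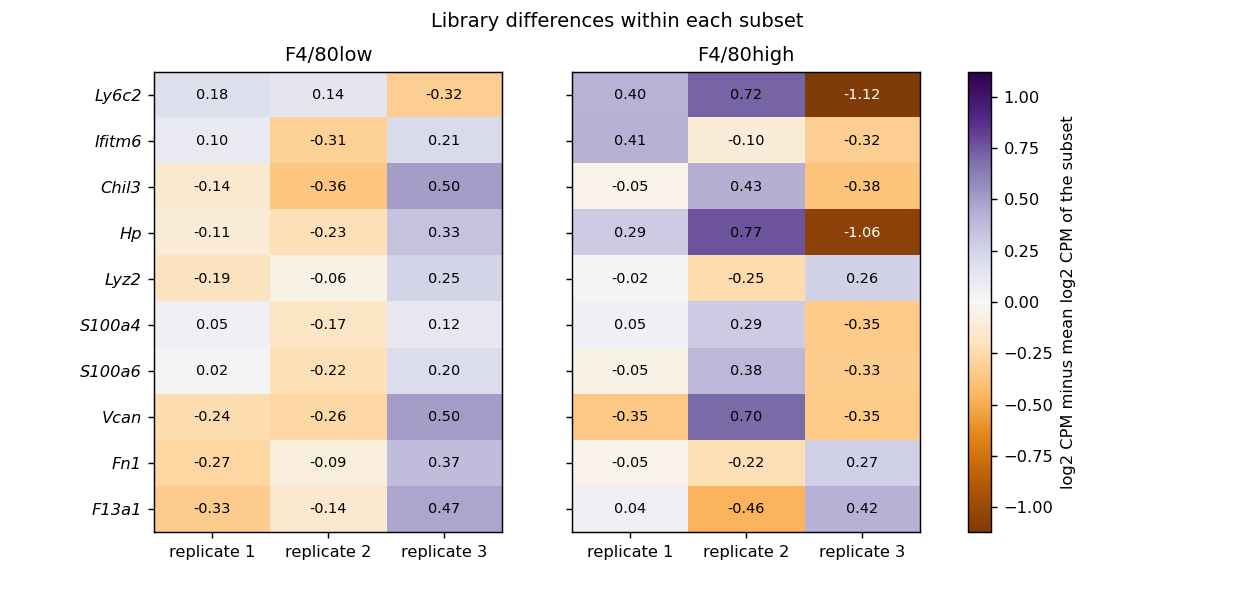
Deviation of each library from the mean of its subset, on the log2 CPM scale, for the 10 genes; purple cells are above and orange cells below the mean. F4/80high replicate 3 is below the mean for *Ly6c2* (-1.12) and *Hp* (-1.06) and above it for *F13a1* (0.42), and F4/80low replicate 3 is above it for all genes but *Ly6c2* (-0.32).

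Of 30 other genes listed for classical monocytes, 28 were in the table. Of these, 21 were lower in F4/80high MAMs, 17 of them by more than 2-fold, 2 were higher (*Lyz1* and *Ctsc*) and 5 were not called (*Ms4a6c*, *Cd14*, *Irf8*, *Klf2* and *Cebpd*), with a median log2 fold change of -1.33. *Ccr2*, the chemokine receptor by which monocytes leave the marrow, measured 525, 439 and 426 CPM in F4/80high MAMs and 1358, 1361 and 1392 CPM in F4/80low MAMs (log2 fold change -1.56 ± 0.11, edgeR adjusted p = 1.40e-05). *Thbs1*, which encodes the secreted protein thrombospondin 1, had a log2 fold change of -2.52 ± 0.39 (edgeR adjusted p = 0.00101). *Ctsc*, a lysosomal protease that activates granule proteases, was higher in F4/80high MAMs, by 0.61 ± 0.11 on the log2 scale (edgeR adjusted p = 0.00254). The study named *Ccr2* and *S100a8*, among others, from these libraries, so this count is not independent evidence either.

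Genes listed for nonclassical monocytes, the Ly6C-low patrolling cells, were mostly lower in F4/80high MAMs as well, 12 of 15 of them, with 1 higher (*Cx3cr1*), 2 not called (*Pou2f2* and *Tgfbr3*) and a median of -1.73. *Nr4a1*, the nuclear receptor on which these monocytes depend, measured 312, 110 and 152 CPM against 1633, 1023 and 1421 CPM (log2 fold change -2.83 ± 0.38, edgeR adjusted p = 0.000469). *Itgal*, an integrin subunit, had a log2 fold change of -1.73 ± 0.15 (edgeR adjusted p = 4.26e-05). *Cx3cr1*, the fractalkine receptor of nonclassical monocytes and of many tissue macrophages, was at 1457, 1264 and 1755 CPM against 424, 578 and 519 CPM (log2 fold change 1.56 ± 0.16, edgeR adjusted p = 0.000109). Of 14 genes of mature macrophages, 12 were higher in F4/80high MAMs and 0 were lower, with a median of 1.95; this list includes *Adgre1*, on whose product the cells were sorted. The 3 with the highest mean CPM were *Apoe* (log2 fold change 2.00 ± 0.21, edgeR adjusted p = 0.000122), *Csf1r* (0.64 ± 0.16, adjusted p = 0.00992) and *C1qb* (1.90 ± 0.11, adjusted p = 7.19e-06).

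**Figure D5:**
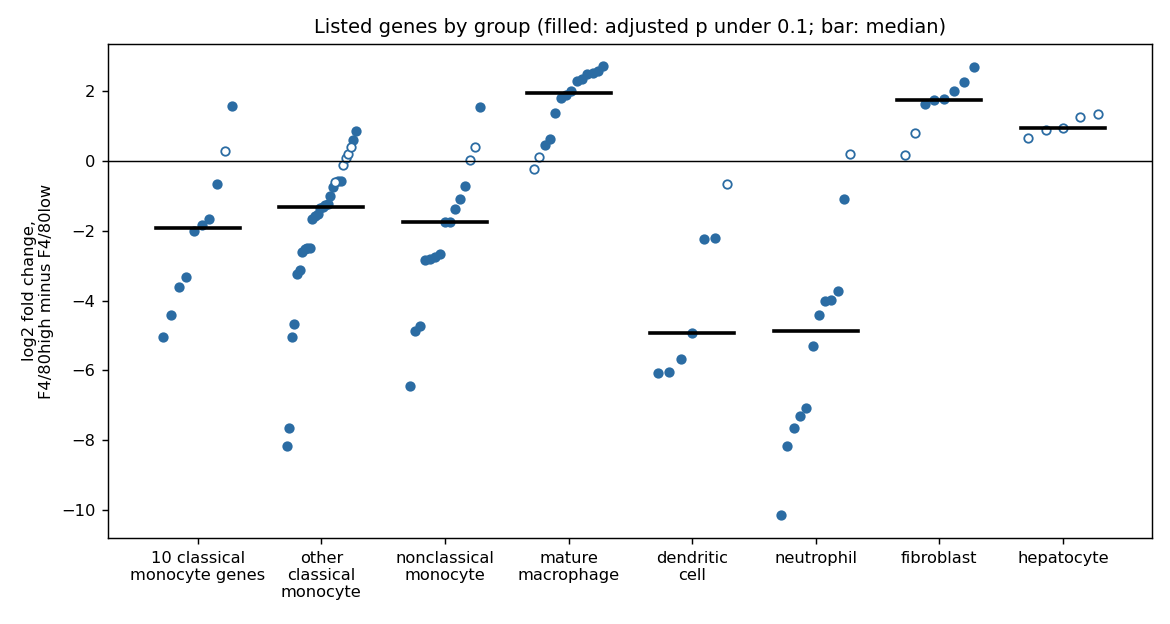
Log2 fold change, F4/80high minus F4/80low, of each gene of 8 lists, sorted within a list; filled points were called, open points were not, bars are medians, and *S100a8* and *S100a9* stand in both the other classical monocyte and the neutrophil list. The medians are -1.92 for the 10 genes, -1.33 for other classical monocyte genes, -1.73 for nonclassical monocyte genes and 1.95 for mature macrophage genes.

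Markers of other cells also differed between the subsets, and their part in the results for the 10 genes was not tested. In bulk samples, fewer cells of a type and less RNA per cell cannot be told apart. Of 12 neutrophil genes in the table, 11 were lower in F4/80high MAMs and *Csf3r* was not called. Their summed level was 86.9 to 120.0 CPM in F4/80high and 400.2 to 673 CPM in F4/80low MAMs, and 8 of the 12 were under 1 CPM in every F4/80high library. The sums rested mostly on different genes, *Csf3r* in F4/80high MAMs (73.3 to 103 CPM) and *Mmp9* in F4/80low MAMs (273 to 427 CPM). F4/80low replicate 1 had the highest sum, while *Chil3* and *Hp* were highest in replicate 3. Of the 3 genes of the list with the highest mean CPM over the 6 libraries, *Mmp9* had a log2 fold change of -5.31 ± 0.24 (edgeR adjusted p = 2.48e-06), *Cd177* of -4.02 ± 0.33 (adjusted p = 3.94e-05) and *Csf3r* of 0.19 ± 0.14 (adjusted p = 0.306). Of 7 dendritic cell genes, 6 were lower and *Xcr1* was not called, with a summed level of 10.3 to 16.9 CPM in F4/80high and 376 to 670 CPM in F4/80low MAMs, with the highest mean CPM for *Ccr7*, *Cd209a* and *Flt3*. *Cdh1* and *Epcam*, the 2 tumor epithelium genes in the table, which some dendritic cells also express, were both lower, with sums of 8.30 to 11.8 CPM in F4/80high and 197 to 281 CPM in F4/80low MAMs. Of the progenitor genes, *Kit*, *Cd34* and *Prtn3* were in the table, and all 3 were lower.

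Fibroblast genes went the other way. Of 8, 6 were higher in F4/80high MAMs, with the highest mean CPM for *Col1a2*, *Col3a1* and *Col6a3*, and *Col1a1* and *Postn* were not called. Their summed level was 312 to 672 CPM in F4/80high and 52.3 to 183 CPM in F4/80low MAMs, and it was highest in F4/80high replicate 2, the library in which *Vcan*, *S100a4* and *S100a6* were also highest and *Fn1* was lowest within that subset. In F4/80low MAMs the sum was highest in replicate 1, while these 4 genes were highest in replicate 3. *Ly6c2*, *Chil3* and *Hp*, which are not given above as fibroblast transcripts, were also highest in F4/80high replicate 2 within that subset. Without F4/80high replicate 2, the log2 fold change was -2.28 for *Vcan*, -2.16 for *S100a4* and -1.86 for *S100a6*. It was -3.99 for *Ly6c2*, -3.58 for *Chil3* and -4.88 for *Hp*, so these genes moved in the same direction. The 5 hepatocyte genes in the table were not called, with sums of 2.27 to 13.5 CPM in F4/80high and 2.42 to 6.42 CPM in F4/80low MAMs, with the highest mean CPM for *Alb*, *Ahsg* and *Apoa1*. Of 8 genes of Kupffer cells, the resident liver macrophages, 5 were higher in F4/80high MAMs (*Vsig4*, *Cd5l*, *Marco*, *Folr2* and *Cdh5*), *Timd4* and *Id3* were lower and *Clec4f* was not called. Sums of the Kupffer cell list were 87.3 to 113 CPM in F4/80high and 63.8 to 75.0 CPM in F4/80low MAMs, with the defining gene *Clec4f* between 0.422 and 2.80 CPM and between 0.432 and 0.558 CPM. These sums rested mostly on different genes, *Folr2* in F4/80high MAMs (55.1 to 94.0 CPM) and *Id3* in F4/80low MAMs (45.1 to 59.9 CPM). Of 7 lymphocyte genes, *Klrb1c* was lower and 6 were not called, with sums of 4.61 to 17.5 CPM and 5.32 to 23.6 CPM.

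Ym1 is often counted among the products of alternatively activated macrophages, so the other genes of that list were compared with *Chil3*. They did not share a direction. *Arg1*, *Mgl2* and *Pdcd1lg2* were lower in F4/80high MAMs, *Mrc1* and *Il4ra* were higher, and *Retnla* was not called. *Arg1*, which encodes arginase 1, measured 302, 275 and 269.95 CPM in F4/80high MAMs and 649, 444 and 1209 CPM in F4/80low MAMs (log2 fold change -1.44 ± 0.31, edgeR adjusted p = 0.00576). In the study's flow cytometry, arginase 1 protein was instead higher in F4/80high than in F4/80low MAMs, so transcript and protein differed in direction. *Mrc1*, the mannose receptor CD206, had a log2 fold change of 2.59 ± 0.18 (edgeR adjusted p = 1.75e-05), and *Il4ra*, the interleukin receptor chain, of 0.40 ± 0.09 (edgeR adjusted p = 0.00654).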

How the data were processed

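RNA of F4/80high and F4/80low MAMs was converted to directional poly(A) libraries by the study. According to the submitters' processing notes, reads were trimmed with Trim Galore and quantified with Salmon v1.10.0 on GRCm39. The deposited table gives estimated counts as whole numbers, not normalized, for 13759 genes, each with at least 37 counts in all. The authors' filter behind that table is not given in the sources used here. Identifiers were named from GENCODE vM39, which held 13726 of them, and positions and transcript lengths are those of its annotation.

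The tests were run with edgeR v4.0.16, DESeq2 v1.42.0 and limma v3.58.1 under R v4.3.3, and the plots were drawn with matplotlib v3.10.9 under Python v3.11.15. Libraries were scaled by TMM, filterByExpr kept all genes, and the subsets were compared with edgeR's quasi-likelihood test, tested on simulated data. Benjamini-Hochberg adjustment ran over all genes. The SE was derived from the log2 fold change and the test's F statistic. The deposited estimated counts of 12 lymphocyte libraries (8795721 to 14386834 per library) entered no comparison.

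The 10 genes and all lists were chosen with earlier results of these data known. Named in the text are the 10 genes, their close relatives, the genes of the sort, the 3 genes of each list with the highest mean CPM and, where a count was 5 or fewer, its genes, except for genes that are not reported here. Alternatives were DESeq2, limma-voom, other scalings and filters, a replicate block, a stricter threshold, a sum over lysozyme copies, and each library left out.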

Additional observations from a re-analysis of the deposited data

Results flagged for a closer look

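Transcripts of the 10 genes were also counted in the 12 libraries of sorted type 1 lymphocytes, 3 each of NK cells and ILC1 from metastasis-free liver (MFL) and of CD49a+ and CD49a- NK cells from metastasis (LM), which entered no comparison. The highest level of each gene there, in CPM after TMM scaling of those libraries, is given with no explanation, and levels are not to be set beside those of the MAMs, which were made with another kit and scaled separately. *Ly6c2* had more than 3 counts in 12 of 12 libraries and reached 91.1 CPM in MFL NK replicate 1, while the 3 MFL ILC1 libraries lay between 2.12 and 5.86 CPM. *S100a6* reached 149 CPM and *S100a4* 61.0 CPM, both in MFL ILC1 replicate 3. *Lyz2* reached 85.2 CPM, *Fn1* 89.0 CPM, *F13a1* 19.98 CPM, *Chil3* 12.004 CPM, *Vcan* 11.8 CPM and *Hp* 8.42 CPM, all 6 in MFL ILC1 replicate 2, whereas the median of the 3 MFL ILC1 libraries was 7.56 CPM for *Lyz2* and 0 for *Chil3* and *Hp*. *Ifitm6* had more than 3 counts in 2 of 12 libraries, with a highest level of 2.42 CPM in LM CD49a+ NK replicate 2.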

How the results depend on the processing

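The 9 called genes of the 10 kept their direction and their call under each of the alternatives tried, over which the edgeR adjusted p of *Fn1* rose to 0.0627 at most; *Lyz2* did not. Its log2 fold change was 0.42 (edgeR adjusted p = 0.0407) with library totals and 0.27 (adjusted p = 0.0874) with a replicate block, and 0.13 to 0.41 with each library left out, so that 2 of the 10 genes were called higher with library totals, 2 with the replicate block, and 1 to 2 with each library left out. Of the other classical monocyte genes, 4 were called higher with library totals, 4 with the replicate block, 1 with limma-voom, 1 with a mean of at least 5 CPM required, 1 at an adjusted p under 0.05, and 1 to 3 with each library left out. Of the nonclassical monocyte genes, 2 were called higher with library totals and 1 to 2 with each library left out. The cause was not tested. Same-numbered libraries of the subsets deviated with correlations of 0.17, -0.01 and 0.03, so the numbers were not taken as pairs; with the block, 3721 genes were lower and 3791 higher, against 3734 and 3821 without it, and F4/80high replicates 2 and 3 did not correlate best with their own number. With 3 libraries per subset, the lowest F4/80high levels, of *Ifitm6* and *Hp*, rest on 31 to 104 counts per library.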
